A study of Mus musculus with 6 samples.

Results

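Collagens are the main structural proteins of the extracellular matrix, and the mouse genome encodes their chains in many separate genes. Collagen genes were taken here as the genes whose symbol was Col, a number, the letter a and a number, with nothing after it. The rule found 44 of the 32285 genes in the count tables, and used no measured value. By the form that their proteins are known to take, 11 were fibrillar, 8 basement membrane, 6 beaded filament, 9 fibril-associated (FACIT), 3 network-forming and 4 transmembrane collagens, and 3 belonged to none of these classes.

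The libraries came from pancreatic islets of 6 C57BL/6J mice aged 12 to 14 weeks, 1 library per mouse. The 3 WT mice were littermates that carried the Cre driver (Ins1Cre-Thor) without deletion, and the 3 β14-3-3ζ–KO mice carried the same driver together with floxed *Ywhaz*, the gene of 14-3-3ζ, so that both groups shared the Cre allele. The driver is active in insulin-producing cells, and stellate, endothelial, ductal and immune cells were not its target. Islets were released with collagenase, handpicked, cultured overnight and dispersed with trypsin before droplet capture of 3′ transcript ends. Single cells were profiled in the original study to compare β cells with and without 14-3-3ζ. The comparisons below ask which islet cells carried collagen transcripts, and whether those transcripts differed between WT and β14-3-3ζ–KO islets.

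Fibrillar collagens (types I, II, III, V, XI, XXIV and XXVII) assemble into the tensile fibers of the stroma. Type IV collagen forms the sheet-like network of basement membranes, where collagens XV and XVIII sit beside it. In the pancreas, stellate cells and fibroblasts are the known source of interstitial fibers, while the islet capillary lays down the basement membrane on which the β cells rest. Every collagen is a trimer, which may be built from 1 gene (type III) or several (types I, IV, V and VI).

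*Col4a1* and *Col4a2* encode the chains of the most common type IV trimer, and lie head to head on chromosome 8 with annotated starts 21 bp apart (11312826 on the minus strand and 11312805 on the plus strand, GRCm38). Their promoters are printed because the ratio of their transcripts differed between cell types, as described below, although the windows shown share 78 bases. *Col1a2* and *Col3a1* are printed beside them as fibrillar genes that were high together in stellate cells but not in α cells. Each line gives 300 bases from RefSeq (GRCm38.p6), 5′ to 3′ on the gene's strand, from 250 bases before to 50 bases after the start. Capitals mark matches to the letters TATAAA (the TATA box), to CCAAT (the CCAAT box) and to GGGCGG (the GC box) on either strand. The windows are chr8:11312777-11313076 on the minus strand, chr8:11312555-11312854 on the plus strand, chr6:4505368-4505667 on the plus strand and chr1:45311288-45311587 on the plus strand, in the order printed.
Col4a1: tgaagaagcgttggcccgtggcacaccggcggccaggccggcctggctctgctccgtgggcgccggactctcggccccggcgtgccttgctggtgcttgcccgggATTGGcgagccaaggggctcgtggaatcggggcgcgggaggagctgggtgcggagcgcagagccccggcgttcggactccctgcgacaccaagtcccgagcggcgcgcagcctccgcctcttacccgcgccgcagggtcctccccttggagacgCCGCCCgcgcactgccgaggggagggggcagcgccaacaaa
Col4a2: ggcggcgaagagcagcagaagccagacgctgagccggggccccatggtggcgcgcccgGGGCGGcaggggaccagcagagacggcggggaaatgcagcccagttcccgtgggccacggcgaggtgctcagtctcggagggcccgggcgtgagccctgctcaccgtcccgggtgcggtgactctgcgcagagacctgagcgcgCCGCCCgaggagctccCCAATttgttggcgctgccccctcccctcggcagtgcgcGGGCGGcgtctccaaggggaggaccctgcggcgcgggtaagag
Col1a2: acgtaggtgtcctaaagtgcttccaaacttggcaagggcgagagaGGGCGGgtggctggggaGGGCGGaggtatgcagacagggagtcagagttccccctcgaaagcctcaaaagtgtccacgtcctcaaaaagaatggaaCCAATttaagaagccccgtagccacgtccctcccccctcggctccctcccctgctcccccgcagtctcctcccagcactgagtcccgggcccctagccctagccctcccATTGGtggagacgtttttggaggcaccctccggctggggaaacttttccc
Col3a1: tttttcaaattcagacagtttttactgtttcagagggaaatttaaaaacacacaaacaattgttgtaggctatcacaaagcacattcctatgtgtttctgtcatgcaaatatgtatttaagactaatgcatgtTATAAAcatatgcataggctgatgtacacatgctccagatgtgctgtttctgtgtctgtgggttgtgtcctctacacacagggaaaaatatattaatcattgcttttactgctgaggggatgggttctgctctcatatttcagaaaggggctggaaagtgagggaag

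A promoter window was at hand for 35 of the 44 genes. Where a gene had more than 1 window, the first listed was counted. GGGCGG was found in 22 of those 35 windows (62.9%) and in 35.9% of 27025 promoters of the same length. CCAAT was found in 12 of 35 (34.3%) against 37.9% of all promoters, and TATAAA in 5 of 35 (14.3%) against 14.2%. GC content was 74.0% in the *Col4a1* window and 37.7% in the *Col3a1* window. These matches describe the letters of the windows only.

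The 6 libraries held 74083947 to 98294915 unique molecular identifiers (UMIs) each, and 25431 cells were kept of 43445 barcodes (1789 to 7634 per library). Of the kept cells, 80 barcode sequences occurred in more than 1 library. Clusters were made without any collagen gene and named from marker genes. The cells comprised 341 stellate cell–like, 1113 endothelial-like, 186 ductal-like, 496 macrophage-like and 8749 endocrine cells, of which 5994 were β cell–like, 708 α cell–like and 833 δ cell–like. A cluster of 1214 endocrine cells was led by *Ppy* and kept that name. A further 287 cells carried 8 of 8 endothelial markers together with 5 of 8 stellate markers, such as *Rgs5* and *Pdgfrb*, and are called the endothelial and *Rgs5* cluster. Their median was 19149 UMIs, against 7792 in endothelial-like and 11110 in stellate cell–like cells. Whether these barcodes mixed cells of both kinds was not tested beyond the calling of doublets. *Ywhaz* stood at 125, 167 and 161 on the counts-per-million scale (CPM) in β cell–like cells of WT 1, 2 and 3, and at 18.5, 16.5 and 19.0 in those of KO 1, 2 and 3.

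The stellate cell–like class passed its marker check with 8 of 8 markers (*Pdgfrb*, *Pdgfra*, *Dcn*, *Lum*, *Rgs5*, *Acta2*, *Cspg4* and *Notch3*), but it was a mixture. It divided into 87 cells led by *Igfbp5* with 3 of 5 pericyte markers, 55 led by *Slpi*, and 90 led by *Ccl19*. The *Ccl19*-led cells had 4 of 5 fibroblast markers and likewise 3 of 5 pericyte markers. *Cxcl9*, *Ccl21a* and *Cxcl13* were also among their leading genes. Another 39 cells had 3 of 4 Schwann cell markers, and 70 had all 8 β cell markers. *Igfbp5*-led cells made up 61.3% of the class in WT 1 and 52.6% in KO 1, against 13.5 to 28.6% in the other 4 libraries. *Ccl19*-led cells made up 37.5% in WT 2, 36.8% in KO 2 and 26.8% in KO 3, but 3.23% in WT 1 and 0% in WT 3 and KO 1. Summed β cell markers were 6580 CPM in the stellate cell–like cells of WT 1, and between 63057 and 121410 in the other 5 libraries. The class is therefore described as a whole and, where a result turns on it, by subcluster.

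**Figure D1:**
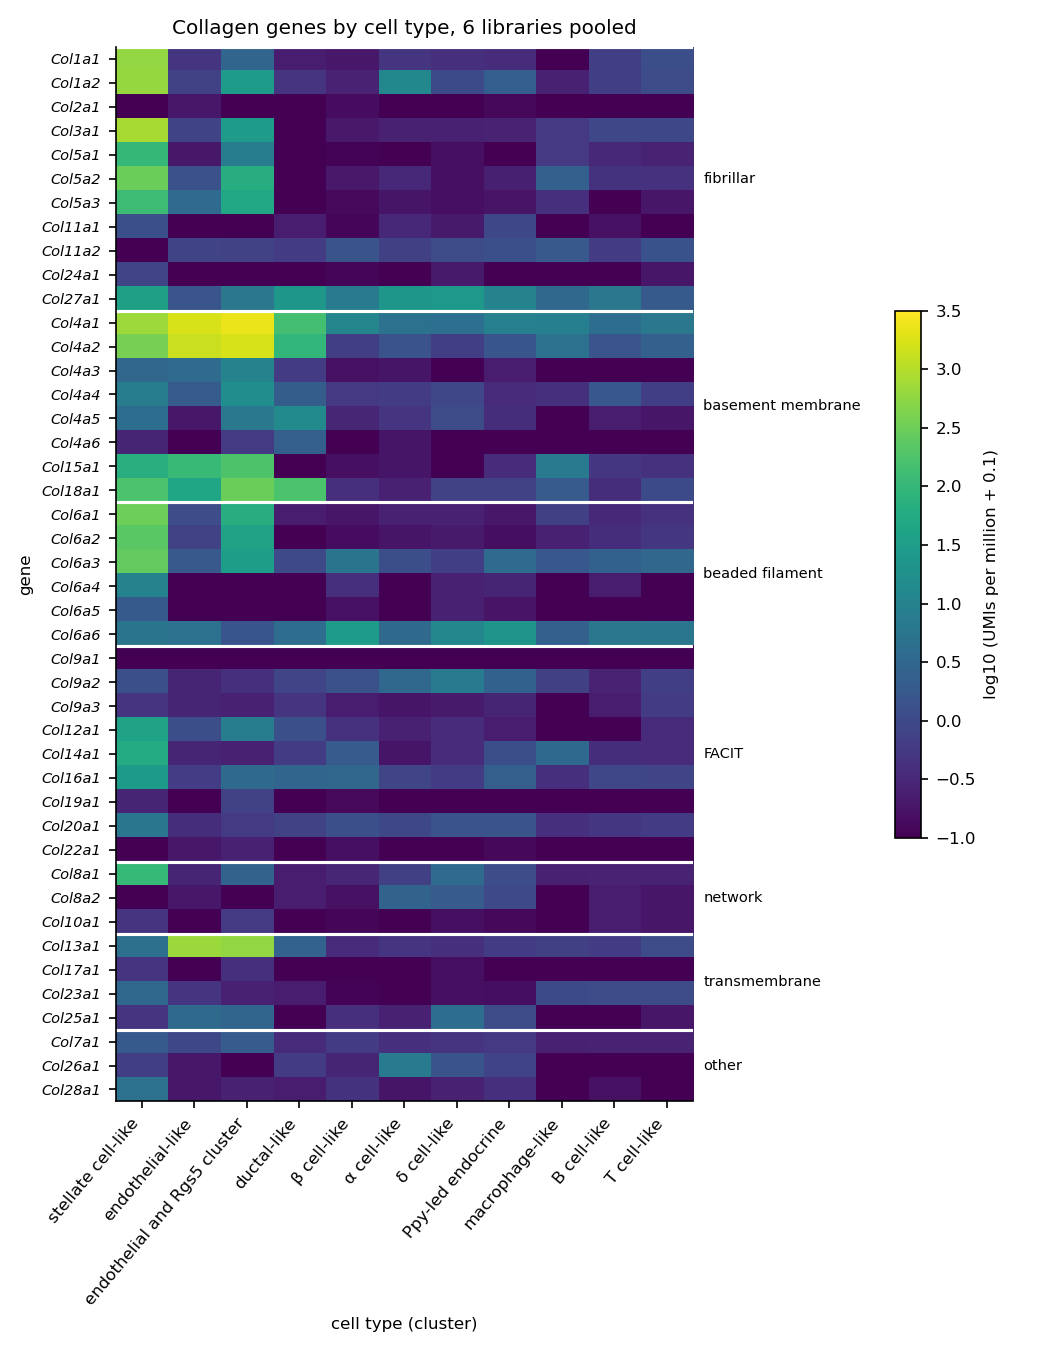
Level of each of the 44 collagen genes (rows, grouped by class) in 11 cell types (columns), as log10 of CPM plus 0.1, with the UMIs of the 6 libraries pooled. The fibrillar rows are bright mainly in stellate cell–like cells, *Col4a1* and *Col4a2* in endothelial-like, endothelial and *Rgs5*, stellate and ductal cells, and *Col6a6* in β cell–like and *Ppy*-led cells.

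Levels are given as CPM, the UMIs of a gene scaled to all UMIs of the cell type in a library. The 3′ assay counts 1 UMI per captured molecule whatever its length, so levels were not scaled by gene length, and levels of different genes also carry differences in capture. The order of cell types is a description without a test, although collagen genes took no part in the clustering. Among stellate cell–like, endothelial-like, ductal-like, macrophage-like and endocrine cells, by pooled level, 27 of the 44 genes were highest in stellate cell–like, 8 in endothelial-like, 4 in endocrine, 3 in ductal-like and 1 in macrophage-like cells, while *Col9a1* had 0 UMIs in all of them. At least 1 UMI was counted for 39 of the 44 genes in stellate cell–like, 35 in endothelial-like, 28 in ductal-like, 24 in macrophage-like and 43 in endocrine cells. Over 10 CPM stood 19, 5, 5, 0 and 1 of them, respectively. Besides *Col9a1*, the genes *Col2a1*, *Col10a1*, *Col17a1*, *Col19a1*, *Col22a1*, *Col24a1*, *Col4a6* and *Col6a5* had fewer than 30 UMIs over these 5 classes. Apart from *Col9a1*, these genes were counted in the tally of highest cell types. *Col2a1*, *Col19a1* and *Col22a1* each ranked there on 1 UMI in the highest type, and *Col9a3* on 2 UMIs.

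Fibrillar collagens were concentrated in stellate cell–like cells. Their summed level there was 513, 3652 and 4090 CPM in WT 1, 2 and 3, and 395, 2332 and 2579 CPM in KO 1, 2 and 3 (2260 ± 1544, SD, n = 6). In endothelial-like cells the same sum was 9.3, 9.1 and 8.7 CPM in WT and 12.3, 4.3 and 12.4 CPM in KO libraries (9.4 ± 3.0, SD, n = 6). Stellate cell–like cells stood above each other cell type in 6 of 6 libraries, and the ranges did not overlap. The ranges of endothelial-like, ductal-like, macrophage-like and endocrine cells overlapped in fibrillar level, although endothelial-like cells stood below endocrine cells in 6 of 6 libraries. With hormone genes left out of the totals, the endocrine mean was 22.5 in place of 12.7 CPM. WT 1 and KO 1, in which *Igfbp5*-led cells were the most frequent, were the low pair in the stellate cell–like class.

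**Figure D2:**
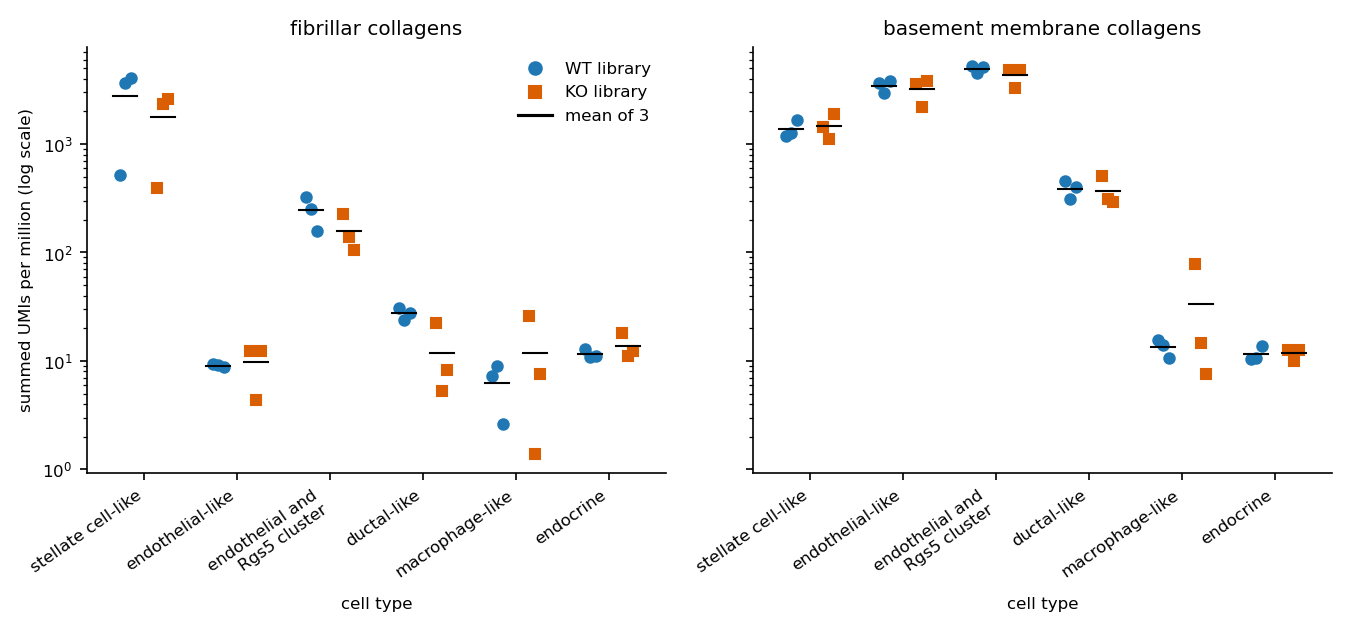
Summed level of fibrillar collagens and of basement membrane collagens in 6 cell types, in CPM on a log axis. Each circle is a WT and each square a KO library, and the line is the mean of the 3 libraries. Fibrillar collagens of stellate cell–like cells lie between 395 and 4090, above every other cell type, and basement membrane collagens of endothelial-like cells lie between 2210 and 3786.

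Type III and type I chains gave most of the stellate fibrillar UMIs when libraries were pooled. In KO 1, *Col3a1*, *Col1a2* and *Col1a1* had 16, 10 and 56 of 170 fibrillar UMIs. In WT 1, *Col5a2* (74 UMIs) exceeded *Col3a1* (70), *Col1a2* (59) and *Col1a1* (24). *Col3a1*, whose product forms the reticular fibers, was at 122, 1126 and 1198 CPM in WT 1, 2 and 3 and at 37.1, 700.0 and 1071 CPM in KO 1, 2 and 3. *Col1a1*, the more abundant chain of type I collagen, was at 42.0, 933 and 902 CPM in WT and at 130.0, 526 and 367 CPM in KO libraries. *Col1a2*, the other type I chain, was at 103, 837 and 941 CPM in WT and at 23.2, 663 and 559 CPM in KO libraries. All 3 genes were low in WT 1 and KO 1, and the WT and KO ranges overlapped in each. *Col5a2*, a chain of the type V collagen that is found within type I fibrils, varied less, from 128 CPM in KO 1 to 587 CPM in WT 3.

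The level of the fibrillar genes differed between subclusters. *Ccl19*-led cells held 14353 of the 25735 collagen UMIs of the stellate cell–like class. *Col3a1* reached 1688, *Col1a2* 1216 and *Col1a1* 1044 CPM in the pooled *Ccl19*-led cells. Fibrillar genes gave 59.1% of the collagen UMIs of *Ccl19*-led cells, 59.0% of those of *Slpi*-led cells and 8.7% of those of *Igfbp5*-led cells. The *Slpi*-led cells themselves ranged from 308 CPM of fibrillar collagens in WT 1 to 10142 CPM in WT 3, which had 3 such cells. Without the *Ccl19*-led cells, the summed fibrillar level of the class was 327, 2242 and 4090 CPM in WT and 395, 1004 and 747 CPM in KO libraries, and still above that of each other cell type. In the cells with Schwann cell markers, *Col5a2* stood at 501 CPM, and *Col28a1* (41.9 CPM), *Col20a1* (51.0 CPM) and *Col11a1* (10.9 CPM) were also counted there, each from 28 UMIs or fewer.

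Basement membrane collagens were highest in the vascular cells. Their sum in endothelial-like cells was 3647, 2938 and 3786 CPM in WT and 3598, 2210 and 3781 CPM in KO libraries (3327 ± 631, SD, n = 6), which was 82.4% of the collagen UMIs of these cells. In stellate cell–like cells it was 1186, 1255 and 1681 CPM in WT and 1423, 1116 and 1897 CPM in KO libraries (1426 ± 306, SD, n = 6), or 26.5% of their pooled collagen UMIs. By library this share was 50.7, 20.3 and 24.3% in WT and 65.7, 25.1 and 31.8% in KO libraries. Endothelial-like cells stood above stellate cell–like cells in 6 of 6 libraries without overlap of the ranges. The endothelial and *Rgs5* cluster was higher still in 6 of 6 libraries, at 4619 ± 705 CPM (SD, n = 6), although its range overlapped that of endothelial-like cells. When all collagens were summed, stellate cell–like (4672 ± 2040 CPM) and endothelial-like cells (4021 ± 670 CPM) overlapped (SD, n = 6 each).

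*Col4a1* alone gave 42.4% of the endothelial collagen UMIs. It was at 1949, 1541 and 1971 CPM in WT and at 1848, 1096 and 1877 CPM in KO libraries, and 89.6% of endothelial-like cells held a UMI. *Col4a2* followed with 1546, 1257 and 1643 CPM in WT and 1554, 998 and 1685 CPM in KO libraries. Both were lowest in KO 2, and the WT and KO ranges overlapped. *Col15a1*, a proteoglycan collagen at the outer face of basement membranes, was at 111 CPM in pooled endothelial-like and 195 CPM in *Slpi*-led cells, and had 0 UMIs in ductal-like cells. *Col18a1*, whose C-terminal fragment is endostatin, was at 44.4 CPM in pooled endothelial-like cells, 166 CPM in stellate cell–like cells, 171 CPM in ductal-like cells and 304 CPM in the endothelial and *Rgs5* cluster (221 to 424 CPM over libraries).

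Of the 6822 basement membrane UMIs of the stellate cell–like class, 36.1% came from *Ccl19*-led, 29.6% from *Igfbp5*-led and 21.1% from *Slpi*-led cells. Relative to all UMIs, these genes were prominent in the *Igfbp5*-led cells, where *Col4a1* stood at 1592 CPM, *Col4a2* at 1009 CPM and *Col18a1* at 337 CPM, pooled over libraries. Basement membrane genes gave 83.0% of the collagen UMIs of these cells. Their sum ranged from 2133 to 4721 CPM over the 6 libraries. The corresponding share was 22.5% in *Slpi*-led and 17.1% in *Ccl19*-led cells. *Igfbp5*-led cells were closer in collagen makeup to endothelial-like cells (82.4% basement membrane) than to the other stellate cell–like subclusters.

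**Figure D3:**
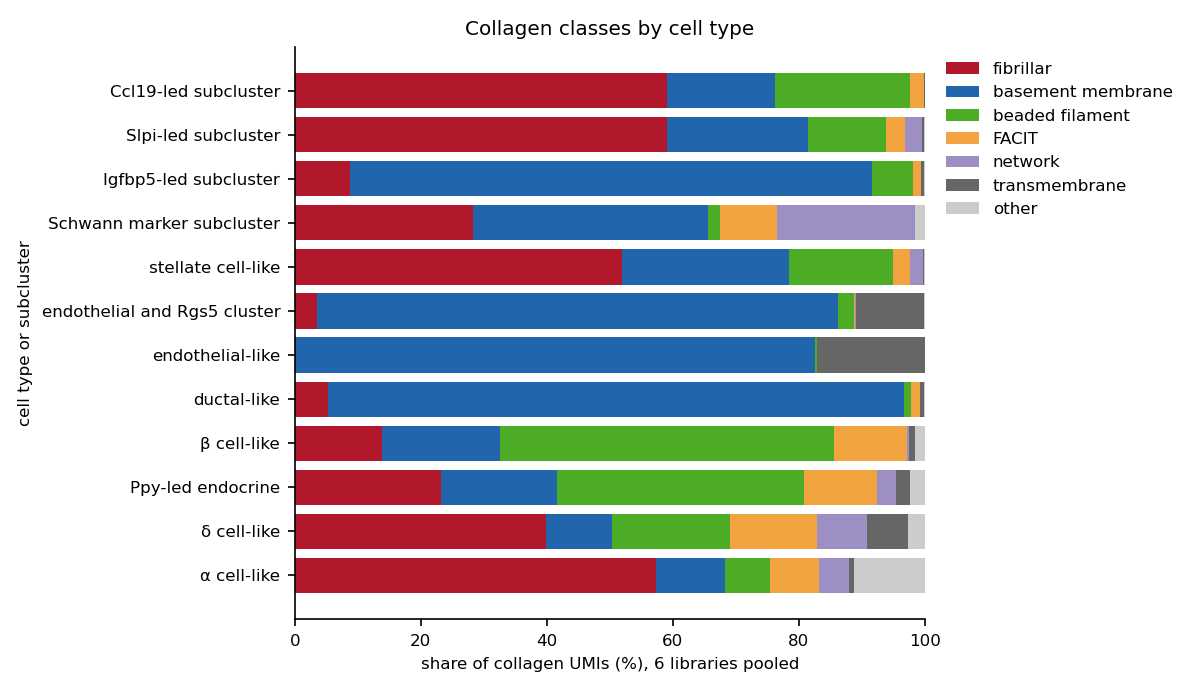
Share of the collagen UMIs of each cell type or subcluster that fell in each collagen class, in percent, with libraries pooled. Basement membrane genes take over 80% of the bar in endothelial-like, endothelial and *Rgs5*, *Igfbp5*-led and ductal-like cells, and fibrillar genes take 59.0% in *Slpi*-led, 59.1% in *Ccl19*-led and 57.4% in α cell–like cells.

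Ductal-like cells carried a basement membrane set of another makeup. Their summed level was 458, 309 and 399 CPM in WT and 505, 313 and 294 CPM in KO libraries (380 ± 88.3, SD, n = 6), below stellate cell–like and above endocrine and macrophage-like cells. *Col18a1* was the leading gene when libraries were pooled, at 199, 141 and 151 CPM in WT and 194, 68.9 and 125 CPM in KO libraries, and gave 36.5% of the ductal collagen UMIs. *Col4a1* followed with 103 to 180 CPM and *Col4a2* with 45.2 to 104 CPM. In KO 2, with 7 cells, *Col4a1* (122 CPM) and *Col4a2* (95.4 CPM) stood above *Col18a1*. *Col4a5* (14.3 CPM) and *Col4a6* (2.19 CPM), the X-linked pair of type IV chains, were both highest in ductal-like cells, the latter on 17 UMIs. *Col18a1* shares its locus with *Slc19a1* on the opposite strand, which had 121 UMIs in these cells against 1325 for *Col18a1*. *Col27a1*, a fibrillar gene that was counted in several cell types, was in ductal-like cells at 30.1, 23.9 and 25.9 CPM in WT and at 21.8, 5.3 and 6.6 CPM in KO libraries. The values of WT 2, KO 2 and KO 3 rested on 9, 1 and 4 UMIs. The libraries held 7 to 59 ductal-like cells each, and KO 2 held 7, so ductal-like cells were not tested between genotypes.

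Type VI collagen, which forms beaded microfilaments between fibers and basement membranes, came next after these classes in stellate cell–like cells. *Col6a1* stood at 191, 389 and 295 CPM in WT and at 60.3, 293 and 492 CPM in KO libraries. *Col6a2* ranged from 48.7 CPM in KO 1 to 369 CPM in KO 3, and *Col6a3* from 41.8 CPM in KO 1 to 389 CPM in WT 2. KO 1 was the lowest library in each of these 3 genes. The beaded filament sum was 418, 1070 and 652 CPM in WT and 151, 729 and 1225 CPM in KO libraries.

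Among the remaining classes, *Col13a1*, a transmembrane collagen, was carried by the vascular cells. It was at 618, 613 and 793 CPM in WT and at 716, 624 and 653 CPM in KO endothelial-like cells (669 ± 71.6, SD, n = 6), where 78.3% of the cells held a UMI, and at 581 ± 87.2 CPM in the endothelial and *Rgs5* cluster. In stellate cell–like cells its pooled level was 4.48 CPM. The network collagen gene *Col8a1* was at 103 CPM in pooled stellate cell–like cells and at 621 CPM in the cells with Schwann cell markers. The FACIT genes *Col14a1* (59.6 CPM), *Col12a1* (39.7 CPM) and *Col16a1* (28.2 CPM), whose products decorate fibrils, were also highest in stellate cell–like cells.

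Macrophage-like cells held 270 collagen UMIs in all, and no collagen gene was over 10 CPM when libraries were pooled. Their summed basement membrane level was 15.4, 13.9 and 10.6 CPM in WT and 78.6, 14.7 and 7.5 CPM in KO libraries, so that KO 1 stood apart. *Col4a1* was at 36.7 CPM in KO 1 and at 1.0 to 6.6 CPM in the other 5 libraries. All 15 *Col5a2* UMIs came from 1 of the 496 cells, in KO 1. B cell–like cells, which are not known to make collagen, held 28.4 to 42.0 CPM of all collagens and T cell–like cells 11.8 to 37.4 CPM, and the macrophage-like sum outside KO 1 (19.8 to 32.8 CPM) lay within the joint range of these cells. *Col15a1* had 44 UMIs in macrophage-like cells (2.6 to 10.5 CPM over the 6 libraries), and 7 in B cell–like and 4 in T cell–like cells. The part of free RNA in these levels was not tested.

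Of the 5 classes, endocrine cells had the second lowest pooled collagen level, with sums of 61.8, 62.9 and 73.5 CPM in WT and 76.0, 59.0 and 66.0 CPM in KO libraries, and the makeup differed from that of the stroma. Beaded filament genes gave 46.3% of the endocrine collagen UMIs, mainly from *Col6a6*. This type VI chain was at 25.2, 28.7 and 38.0 CPM in WT and at 32.3, 24.0 and 29.0 CPM in KO libraries of β cell–like cells (29.5 ± 5.1, SD, n = 6), and at 5.26 CPM in pooled stellate cell–like cells. It ranged from 17.5 to 27.0 CPM in *Ppy*-led, from 8.2 to 15.4 CPM in δ cell–like and from 2.3 to 5.4 CPM in α cell–like cells. *Col6a6* was the only collagen gene over 10 CPM in the pooled endocrine cells, with hormone genes kept in the totals. *Col27a1* (9.91 CPM) and *Col4a1* (9.78 CPM) lay just below that level.

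Sequencing depth differed between the endocrine cells and the background type, with a median of 29542 UMIs in β cell–like and 4741 UMIs in B cell–like cells. Without correction, 50.9% of β cell–like cells (95% interval 49.6 to 52.2%, Clopper-Pearson) and 3.16% of B cell–like cells (2.58 to 3.84%) held a *Col6a6* UMI. After each cell was thinned to 2000 UMIs, the shares were 5.96% (5.38 to 6.60%) and 1.23% (0.869 to 1.68%). *Col4a1* gave 26.6% against 2.25% before and 2.32% against 1.10% after thinning. By library, *Col4a1* stood at 9.0 to 12.3 CPM in β cell–like and 0 to 14.0 CPM in B cell–like cells, so these ranges overlapped. The highest B cell–like value, in KO 1, rested on 1 UMI. For *Col27a1* the thinned shares were 1.39% in β cell–like and 1.35% in B cell–like cells, with overlapping intervals, so no difference from the B cell–like share was detectable at this depth. These intervals cover counting error only, and most of the B cell–like cells came from WT 2 (1248 cells) and KO 2 (1581 cells). Thinning left out 42 β cell–like and 60 B cell–like cells that were shallower.

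The leading collagen genes of α cell–like and δ cell–like cells were low in count. *Col1a2* was at 7.6, 11.9 and 12.7 CPM in WT and at 19.9, 11.3 and 10.8 CPM in KO α cell–like cells, while *Col1a1* had 5 UMIs and *Col3a1* 2 UMIs there against 160 for *Col1a2*. A *Col1a2* UMI was found in 12.9% of α cell–like cells and 2.26% after thinning, against 0.316% and 0.161% of B cell–like cells. The thinned intervals (1.30 to 3.64% and 0.0524 to 0.376%) did not overlap. *Col27a1* was at 16.8 to 37.2 CPM in α cell–like and 15.1 to 39.0 CPM in δ cell–like cells, against 5.87 CPM in pooled B cell–like cells. By library, however, B cell–like cells ranged from 0 CPM in KO 1 to 36.1 CPM in WT 3, on 0 to 40 UMIs each, so the ranges overlapped. *Col26a1* was counted in α cell–like cells in each library (5.8 to 10.7 CPM) and had 0 UMIs in B cell–like and T cell–like cells. δ Cell–like cells held *Col9a2* (5.4 to 9.7 CPM), a FACIT of cartilage, *Col25a1* (2.3 to 6.7 CPM), a transmembrane collagen, and *Col8a1* (0.53 to 5.0 CPM). Pooled, *Col9a2* was at 7.20 CPM in δ, 3.26 in α, 1.21 in β, 0.174 in B and 0.588 in T cell–like cells, and *Col25a1* at 4.12, 0.155, 0.319, 0 and 0.084 CPM in the same order. *Col8a1* was at 3.68 CPM in δ and 0.174 CPM in B cell–like cells, beside 103 CPM in stellate cell–like cells, and the part of free RNA in it was not tested.

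Partner chains differed in ratio between cell types. *Col4a1* and *Col4a2* UMIs stood at a ratio of 1.18 in endothelial-like (1.10 to 1.26 over libraries), 1.34 in endothelial and *Rgs5*, 1.54 in ductal-like and 1.82 in stellate cell–like cells (1.58 to 2.21). In β cell–like cells the ratio was 18.5 (13.8 to 24.1), from 2106 *Col4a1* and 114 *Col4a2* UMIs. The ranges of β cell–like and of stellate cell–like or endothelial-like cells did not overlap. In B cell–like and T cell–like cells it was 2.88 and 2.63. An antisense gene at the *Col4a1* end, *Gm15418*, had 59 UMIs in β cell–like cells and 1 in endothelial-like cells.

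A similar contrast held within type VI collagen for β cell–like cells, and within type I collagen for α cell–like but not β cell–like cells. *Col6a3* to *Col6a1* stood at 0.82 in stellate cell–like cells (0.37 to 1.00) and at 61.4 in β cell–like cells (38.3 to 228), from 1044 and 17 UMIs. It stood at 10.3 in B cell–like (41 and 4 UMIs) and 8.75 in T cell–like cells (35 and 4 UMIs). The *Col6a3* level itself was 2.5 to 9.4 CPM in β cell–like cells and 0 to 3.5 CPM in B cell–like cells, so these ranges overlapped. *Col1a2* to *Col1a1* stood at 1.03 in stellate cell–like cells (0.18 to 2.46 over libraries) and 1.68 in β cell–like cells (32 and 19 UMIs). It stood at 10.9 in the endothelial and *Rgs5* cluster (186 and 17 UMIs) and 32.0 in α cell–like cells (160 and 5 UMIs). Of the fibrillar genes in the endothelial and *Rgs5* cluster, *Col1a2* was at 19.7 to 45.0 CPM and *Col3a1* at 6.0 to 74.7 CPM.

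**Figure D4:**
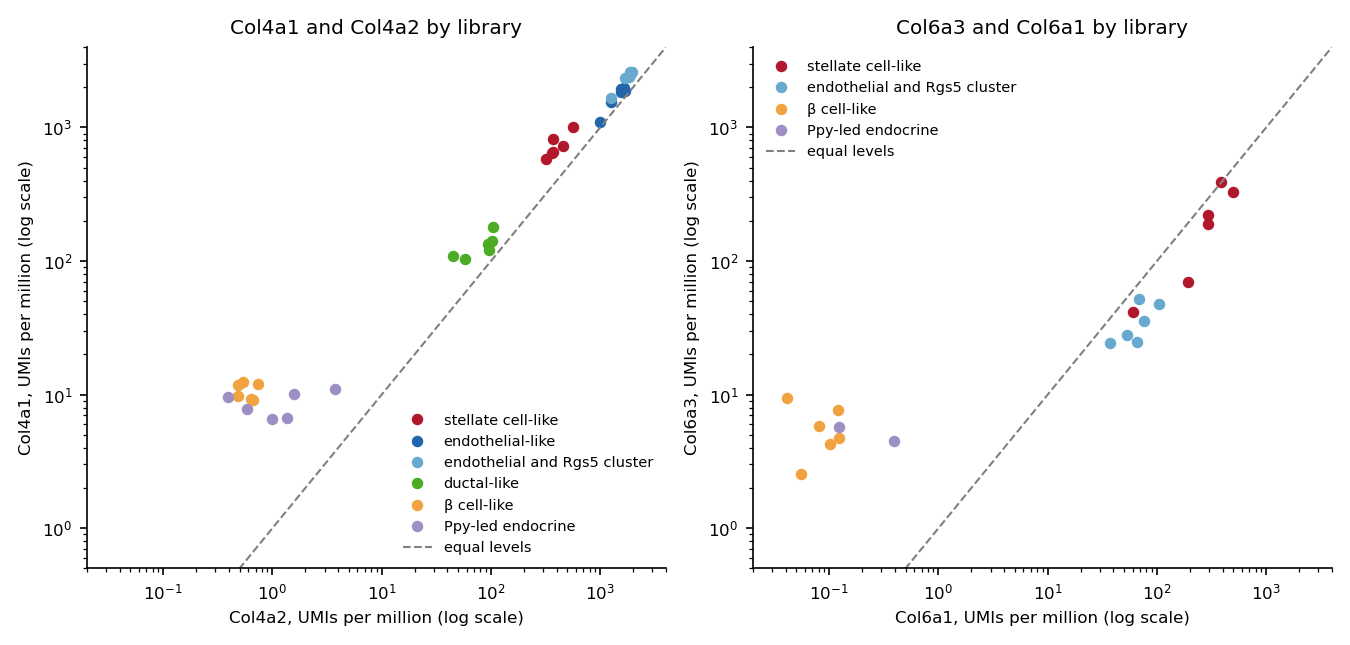
*Col4a1* against *Col4a2* and *Col6a3* against *Col6a1* in CPM for each library and cell type, both axes logarithmic, with a dashed line where both genes are equal. Libraries with 0 UMIs in either gene are not drawn. Endothelial-like libraries lie near the line (ratio 1.10 to 1.26), and β cell–like libraries lie far to the side of *Col4a1* and of *Col6a3*.

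Levels in WT and β14-3-3ζ–KO libraries were then compared, with the library as the replicate, by edgeR's quasi-likelihood test across all genes. A gene was called when its Benjamini-Hochberg adjusted p was below 0.05 and its log2 fold change exceeded 0.1 in size. *Ywhaz* fell by 1.92 on the log2 scale in endocrine cells (SE 0.10, adjusted p = 8.7e-04). Its level in stellate cell–like cells was 574, 311 and 308 CPM in WT and 406, 294 and 366 CPM in KO libraries (log2 fold change -0.10, SE 0.26, adjusted p = 1.00), and in endothelial-like cells it did not pass the test either (-0.19, SE 0.13, adjusted p = 0.998).

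No collagen gene was called in stellate cell–like cells among the 18 tested, and of all 7129 genes tested 0% were called. At an unadjusted p under 0.05, 1 of 18 collagen genes and 1.7% of all genes passed, and DESeq2 called 0 collagen genes. The collagen gene with the lowest p was *Col5a3*, a minor chain of type V collagen. It stood at 71.7, 187 and 208 CPM in WT and 41.8, 82.4 and 61.2 CPM in KO libraries (log2 fold change -1.27, SE 0.47, unadjusted p = 0.026, adjusted p = 1.00 by edgeR), and WT 1 lay within the KO range. The fold changes of *Col1a1* (-0.87, SE 0.96), *Col1a2* (-0.58, SE 1.07) and *Col3a1* (-0.45, SE 1.08) were smaller than their standard errors, and those of *Col4a1* (0.27, SE 0.23) and *Col4a2* (0.09, SE 0.26) were positive. Of the 18 genes, 12 had a fold change below 0, as had 48.2% of all genes tested, and the median was -0.47 against 0.01. With 1 library left out at a time, the median of the collagen genes lay between -0.78 (without WT 1) and 0.01 (without KO 1), and was -0.26 without WT 2 and -0.10 without WT 3. In 0 of 18 collagen genes were the WT and KO libraries apart, against 5.86% of all genes. The biological coefficient of variation was 0.325, above that of the other classes, and the subcluster shares given above differed between libraries of the same genotype. With the *Ccl19*-led cells left out, a choice made after seeing the data, the fold changes were -2.31 for *Col3a1*, -1.86 for *Col1a2* and -1.72 for *Col1a1*, with a median of -0.63 over the collagen genes tested and none called. With the cells carrying Schwann cell markers or endocrine transcripts left out, the median was -0.71, again with none called. WT 3 held only 9 cells in that setting, fewer than the stated minimum for a test.

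In endothelial-like cells, 0 of 5 collagen genes tested were called, against 0% of 9568 genes. At an unadjusted p under 0.05, 1 of 5 and 2.82% of all genes passed, and DESeq2 called 0. *Col18a1* had the lowest p, with 39.8, 32.4 and 38.2 CPM in WT and 70.4, 31.1 and 60.4 CPM in KO libraries (log2 fold change 0.57, SE 0.25, unadjusted p = 0.0496, adjusted p = 0.998 by edgeR). KO 2 was the lowest library, so that the groups overlapped. The main endothelial collagens had log2 fold changes of -0.15 for *Col4a1* (SE 0.19), -0.04 for *Col4a2* (SE 0.18), 0.02 for *Col13a1* (SE 0.13) and 0.08 for *Col15a1* (SE 0.21). For 0 of 5 genes did WT and KO libraries lie apart, against 8.38% of all genes.

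**Figure D5:**
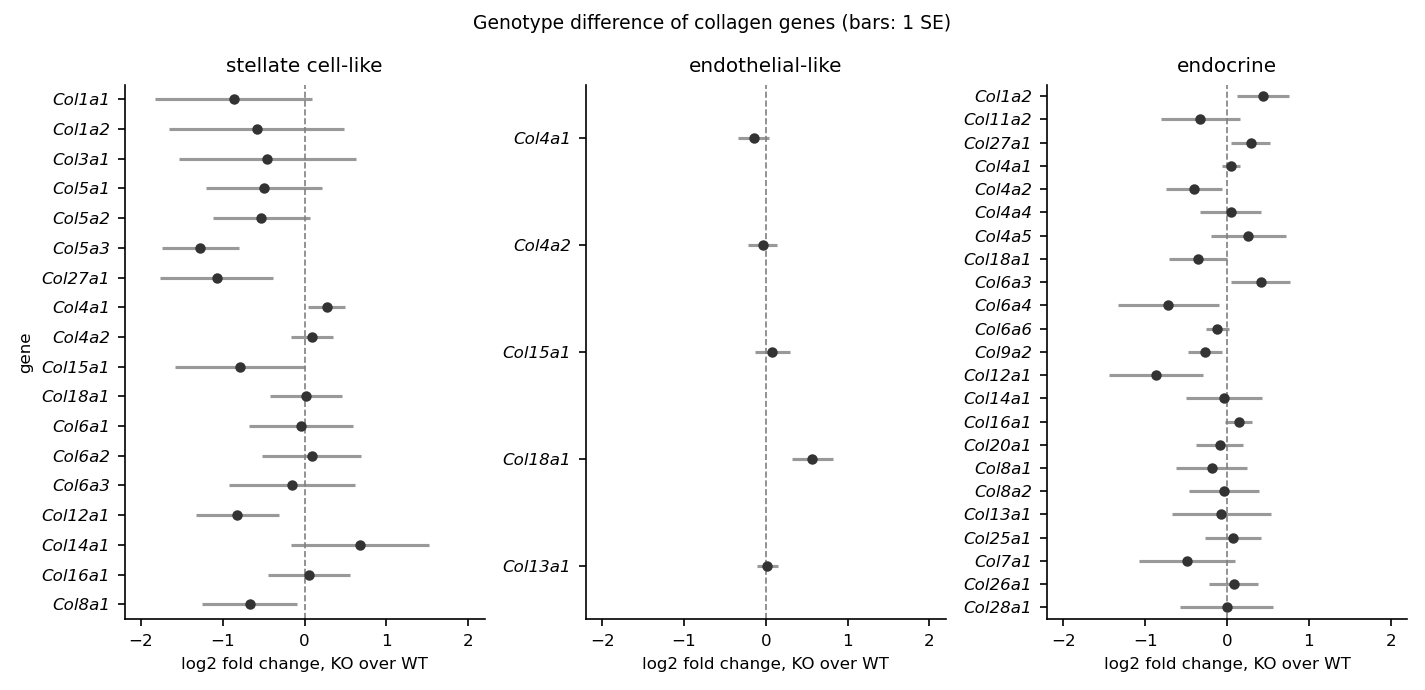
Log2 fold change of KO over WT for each collagen gene tested, with bars of 1 SE from edgeR, in stellate cell–like (18 genes), endothelial-like (5 genes) and endocrine cells (23 genes). None of the genes passed the test, and the bars of stellate cell–like *Col1a1* (0.96), *Col1a2* (1.07) and *Col3a1* (1.08) are long beside those of endothelial-like *Col4a1* (0.19) and *Col13a1* (0.13).

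In endocrine cells, 0 of 23 collagen genes were called, against 0.0134% of 14871 genes, that is, 2 genes, both lower in KO. At an unadjusted p under 0.05, 0 of 23 collagen genes and 3.98% of all genes passed, and DESeq2 called 0 collagen genes. In 0 of 23 were the WT and KO libraries apart, against 6.77% of all genes. The lowest p was that of *Col12a1* (0.70, 0.19 and 0.24 CPM in WT, 0.27, 0.19 and 0.18 CPM in KO libraries; log2 fold change -0.87, SE 0.57, unadjusted p = 0.17 by edgeR), which rested on the value of WT 1. In β cell–like cells, with KO cells that held a *Ywhaz* UMI left out, 0 of 11 collagen genes were called, against 0.00756% of 13227 genes, that is, *Ywhaz* alone, whose call was fixed by leaving out those cells. At an unadjusted p under 0.05, 0 of 11 collagen genes and 4.83% of all genes passed, DESeq2 called 0 collagen genes, and in 0 of 11 were the WT and KO libraries apart, against 6.91% of all genes. The lowest p was that of *Col27a1*, at 7.0, 4.2 and 5.9 CPM in WT and 11.6, 5.7 and 7.5 CPM in KO libraries (log2 fold change 0.52, SE 0.27, unadjusted p = 0.088, adjusted p = 0.917 by edgeR). *Col6a6*, the leading collagen gene of β cell–like cells, had a log2 fold change of -0.08. In macrophage-like cells no collagen gene passed the filter on low counts, and of the 7805 genes tested 0% were called. With the replicate number as a block, the calls were 7 genes in endocrine cells, all lower in KO, 10 higher and 20 lower in β cell–like cells and 17 higher and 18 lower in macrophage-like cells, and no collagen gene was among them.

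The difference in genotype effect between endothelial-like and stellate cell–like cells was tested with limma for 10562 genes, of which 21 were collagen genes. None of the 10562 was called (0%), and 0 of 21 collagen genes and 2.6% of all genes had an unadjusted p under 0.05. *Col4a1* had the lowest p among collagen genes, with a difference of -0.39 on the log2 scale (SE 0.26, unadjusted p = 0.16, adjusted p = 1.00).

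Genes that act on collagen were followed through 74 genes in 6 lists. In the secretory pathway, *Serpinh1*, the collagen chaperone HSP47, averaged 477 CPM in stellate cell–like, 354 in endothelial-like, 45.6 in ductal-like, 3.1 in endocrine and 1.1 in macrophage-like cells, the same order from stellate cell–like to ductal-like cells as the mean summed collagens. *Lox*, which cross-links fibrils, averaged 100.4 CPM in stellate cell–like cells and at most 1.6 CPM elsewhere. *Dcn*, a proteoglycan that binds fibrils and a marker used to name the class, averaged 1016 CPM in stellate cell–like cells. Of the basement membrane partners, the laminin genes *Lamb1* (457 CPM), *Lamc1* (355 CPM) and *Lama4* (305 CPM), the nidogen gene *Nid1* (436 CPM) and the perlecan gene *Hspg2* (311 CPM) were carried by endothelial-like cells. Among collagen receptors, *Ddr2* averaged 111 CPM in stellate cell–like cells, *Ddr1* 101 CPM in ductal-like and 53.5 CPM in endocrine cells, and *Lair1* 145 CPM in macrophage-like cells.

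Between genotypes, 0 of 52 pathway genes tested were called in stellate cell–like, 0 of 37 in endothelial-like, 0 of 43 in endocrine, 0 of 16 in macrophage-like and 0 of 30 in β cell–like cells. At an unadjusted p under 0.05, 6, 1, 1, 1 and 2 of them passed, against 1.7%, 2.82%, 3.98%, 6.11% and 4.83% of all genes tested in these cell types. The stellate cell–like genes were *Plod2*, a lysyl hydroxylase (log2 fold change -0.76, SE 0.21), *Mmp2*, a gelatinase (-2.17, SE 0.63), *Lox* (-1.66, SE 0.60), *Pcolce2* (-1.35, SE 0.47), *Lum* (1.25, SE 0.44) and *P3h3* (1.06, SE 0.45), each with an adjusted p of 1.00 by edgeR. *Mmp2* was at 89.2, 49.0 and 214 CPM in WT and at 18.6, 13.2 and 43.0 CPM in KO libraries, and *Plod2* at 98.0, 82.6 and 77.9 CPM in WT and 55.7, 45.9 and 48.0 CPM in KO libraries. *Lox* was at 226, 102 and 130 CPM in WT and 34.8, 14.0 and 96.0 CPM in KO libraries. All WT libraries lay above all KO libraries in 5 of the 52 pathway genes tested (*Mmp2*, *Plod2*, *Lox*, *Pcolce2* and *Timp2*) and in 3.42% of all genes tested. In none of the 52 did all KO libraries lie above, while 5.86% of all genes tested were apart in either direction, so few were expected on that side. In the other cell types the libraries were apart in 3 of 37 endothelial-like (all lower in KO; 8.38% of all genes were apart), 1 of 43 endocrine (higher; 6.77%), 3 of 16 macrophage-like (lower; 12%) and 3 of 30 β cell–like pathway genes (1 lower and 2 higher; 6.91%). Of the genes that process and cross-link collagen, 6 of 7 tested had a fold change below 0 (median -0.71), and of those that degrade it 7 of 8 (median -0.42), against 48.2% of all genes. The other lists had medians of 0.02 (modification and secretion, 7 of 16 below 0), -0.07 (basement membrane partners, 5 of 8), 0.04 (fibril partners, 4 of 8) and 0.15 (receptors, 2 of 5), and over all 52 genes 31 were below 0 with a median of -0.06. Summed mesothelial markers in stellate cell–like cells were 147, 9.8 and 45.4 CPM in WT and 30.2, 5.4 and 6.6 CPM in KO libraries. Summed fibroblast markers there were 180, 242 and 101 CPM in WT and 90.5, 292 and 492 CPM in KO libraries. The part of cell makeup in the fold changes of these lists was not tested. In endothelial-like cells the lowest p values were those of *Itga2*, a collagen-binding integrin chain (-0.77, SE 0.22), *Fkbp10*, a collagen chaperone (0.52, SE 0.30), and *Plod1* (-0.22, SE 0.13). In endocrine cells they were those of *Ddr1* (0.14, SE 0.06), *Pcolce2* (0.45, SE 0.24) and *P4hb* (-0.15, SE 0.08), and in β cell–like cells those of *Ddr1* (0.21, SE 0.07), *Pcolce2* (0.87, SE 0.31) and *Itga2* (-0.64, SE 0.30). In macrophage-like cells they were those of *Mmp2* (-1.04, SE 0.37), *Plod3* (-0.39, SE 0.19) and *Colgalt1* (-0.31, SE 0.15). None of these passed the adjustment by edgeR, the lowest adjusted p being 0.81 for *Mmp2* in macrophage-like cells.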

How the data were processed

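UMI counts per gene and barcode were deposited as filtered matrices that the authors made with Cell Ranger 6.0.2 and the mm10 build, according to the submitters' processing notes. Whole-number counts were checked and no normalization had been applied.

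Barcodes with fewer than 500 genes (3485), over 10% mitochondrial counts (12956) or called as doublets by scanpy 1.11.5 (1573) were left out. The remaining cells were clustered over 2000 variable genes without collagen genes, 30 components, 15 neighbors and Leiden resolution 1. Clusters were named from at least 3 markers, each counted in 10% of cells and 1.5-fold above the rest. Shallow clusters, with a median under 3500 UMIs, stayed unnamed (8379 cells). *Col3a1*, *Col1a1* and *Col1a2* were nevertheless among the 10 leading genes of the stellate cell–like cluster.

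UMIs were summed per library and cell type, with 10 or more cells required for a test. edgeR 4.0.16 (TMM, filterByExpr, Benjamini-Hochberg adjustment over all genes), limma 3.58.1 and DESeq2 1.42.0 were run in R 4.3.3. The edgeR test had first been run on simulated sums of stellate cell–like, endothelial-like and endocrine cells. A minimum recovery of changed genes was required there for endothelial-like and endocrine cells, but not for stellate cell–like cells. Intervals were exact binomial. Members were named where they gave at least 5% of a cell type's collagen UMIs or had the lowest p of a comparison, other members named with levels were chosen after their values were seen, and the pathway genes named had the lowest p in a comparison, or stand with levels only and were chosen after their values were seen. The members and lists were chosen with earlier results of these data known. Gene positions came from GENCODE vM21 (32158 of 32285 identifiers matched).

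WT and KO mice shared replicate numbers without a stated link. Deviations of same-numbered libraries correlated over genes at 0.34, 0.50 and 0.28 in endocrine, 0.26, 0.31 and 0.14 in macrophage-like and 0.38, 0.35 and 0.22 in β cell–like cells. The replicate block was therefore run as an alternative beside no filter, DESeq2, hormone genes left out and leaving out each library. Other mitochondrial, doublet and clustering settings were applied to the summed collagen levels only, and the genotype tests were not repeated under them.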

Additional observations from a re-analysis of the deposited data

How the results depend on the processing

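No collagen gene was called under any alternative of the genotype tests in stellate cell–like, endothelial-like, endocrine or β cell–like cells, nor for the difference between cell types. The replicate block (0 collagen genes called in each comparison) changed no such call. Other mitochondrial, doublet and clustering settings were not among the alternatives of these tests. With the block, an unadjusted p under 0.05 was found for 4 of 18 collagen genes in stellate cell–like cells (251 of 7129 genes of any kind), 1 of 5 in endothelial-like (725 of 9568), 2 of 23 in endocrine (1604 of 14871), 0 of 0 in macrophage-like (736 of 7805) and 3 of 11 in β cell–like cells (1569 of 13227), and of genes of any kind 0, 5, 7, 18 and 20 were called lower and 0, 0, 0, 17 and 10 higher, against 0, 0, 2, 0 and 1 lower and none higher without it. Same-numbered libraries correlated at 0.31, 0.56 and -0.14 in stellate cell–like and at 0.43, 0.44 and 0.06 in endothelial-like cells, which did not meet the level of 0.1 in every pair there. DESeq2 called 1, 1, 7, 4 and 7 genes of any kind lower and 0, 0, 0, 2 and 1 higher in the 5 comparisons, and no collagen gene. Without a filter on low counts, edgeR called 2 of 24 collagen genes in macrophage-like cells, *Col5a2* (log2 fold change 5.41, SE 1.47, adjusted p = 0.0342) and *Col4a1* (1.89, SE 0.50, adjusted p = 0.0248), both high in KO 1 alone, and, of 16202 genes of any kind, 70 higher and 46 lower. With type IV genes alone the ductal-like basement membrane level was 233 CPM in place of 380. With a mitochondrial limit of 20%, endocrine fibrillar and basement membrane levels were 15.7 and 13.5 CPM (12.7 and 11.7 in the report's setting) and the β cell–like basement membrane level 14.6 CPM (12.3). With hormone genes left out of the totals, these were 22.5, 20.6 and 23.1 CPM, and the β cell–like fibrillar level 16.9 CPM (9.0). Thinning to 2000 UMIs moved, among β cell–like cells, the fraction holding a UMI to 2.32% for *Col4a1*, 5.96% for *Col6a6* and 1.39% for *Col27a1*, that of B cell–like cells to 1.10%, 1.23% and 1.35%, and that of α cell–like cells for *Col1a2* to 2.26%. Alternatives chosen after seeing the data left out both replicate 2 libraries, which turned the log2 fold change of *Col6a3* and *Col6a1* in stellate cell–like cells to 0.55 and 0.20, and of *Col4a2* and *Col13a1* in endothelial-like cells to 0.037 and -0.026. Leaving out the cells with Schwann cell markers or endocrine transcripts, also added later, turned *Col4a2* in stellate cell–like cells to -0.011. WT 3 held only 9 stellate cell–like cells in that setting, below the stated minimum of 10. Leaving out 1 library turned the sign of several small fold changes. In stellate cell–like cells the range was -1.06 to 0.092 for *Col3a1*, -0.64 to 0.71 for *Col6a3*, -0.62 to 0.42 for *Col6a1* and -0.14 to 0.22 for *Col4a2*. In endothelial-like cells it was -0.26 to 0.033 for *Col4a1*, -0.17 to 0.13 for *Col4a2* and -0.036 to 0.14 for *Col13a1*. In endocrine cells it was -0.017 to 0.48 for *Col27a1*, -0.011 to 0.14 for *Col4a1*, -1.20 to 0.034 for *Col12a1* and -0.23 to 0.028 for *Col6a6*, and in β cell–like cells -0.090 to 0.80 for *Col6a3*, -0.0071 to 0.15 for *Col4a1* and -0.17 to 0.050 for *Col6a6*. Without a change of sign, leaving out 1 library moved *Col1a2* to between -1.18 and -0.04, *Col1a1* to between -1.43 and -0.41, *Col5a2* to between -0.98 and -0.05 and *Col4a1* to between 0.11 and 0.42 in stellate cell–like cells, *Col18a1* to between 0.32 and 0.84 in endothelial-like cells, *Col6a3* to between 0.05 and 0.80 in endocrine cells and *Col27a1* to between 0.20 and 0.80 in β cell–like cells. The causes were not tested. Stellate cell–like sums rested on 21 to 106 cells per library.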
